A study of Mus musculus with 6106 samples.

Results

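Interferon-stimulated genes were followed in Tregs, regulatory CD4 T cells that carry the transcription factor Foxp3 and restrain immune responses. The set was a hand-picked list of 41 genes induced by interferon, without the guanylate-binding and immunity-related GTPase families. All 41 were in the table of 23725 genes and had at least 20 UMIs (unique molecular identifiers, each tagging 1 captured RNA molecule), from 27 for Mx1 to 2739 for Ifi27l2a, and 38 had at least 100. The same minimum of 20 UMIs was met by 10113 genes of the table, which served as background. No measured value was used to choose the members, but they were chosen with earlier results of these data known.

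The spleen donors were male mice, 10 months old, on the B6 background with the reporter alleles Nr4a1-Gfp and Foxp3-Ires-Thy1.1. Both reporters were present in every group: Thy1.1 marks cells that express Foxp3, and GFP reports Nr4a1 (Nur77), an early response gene of the T cell receptor. Live TCR beta-positive, CD4-positive, Thy1.1-positive cells were sorted into a GFPlow bin (labelled 0 to 20% of GFP expression), a GFPmed bin (40 to 60%) and a GFPhigh bin (80 to 100%), and each bin gave 1 inDrops library. The labels give neither the number of mice behind a library nor the promoter of the GFP reporter. With 1 library a bin there is no replicate and no test of a difference between bins, and every interval in square brackets is a 95% interval for counting error only.

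With at least 500 UMIs required, 5435 of 6106 cells were used (89.5% of GFPlow, 91.4% of GFPmed and 86.5% of GFPhigh), with means of 1147.4, 1634.5 and 1279.1 UMIs per cell. Levels are given as UPM, UMIs per 1000000 UMIs of the bin, over totals of 2435870, 2512277 and 2270376 UMIs. Foxp3 stood at 389.6, 317.2 and 358.97 UPM, the 6 Treg markers together at 1515.3, 1539.2 and 2166.2 UPM, highest in GFPhigh, and the 6 T cell markers at 3999.8, 3413 and 3521 UPM, in the order low, med, high, and Nr4a1 at 35.7, 92.7 and 340.5 UPM, the order of the labels. Markers of other cell types were detected. Erythroid markers stood at 1394, 2981 and 1043 UPM, B cell markers at 202.8, 277.4 and 269.999, and plasma cell markers at 142.04, 83.99 and 348.4. Myeloid markers stood at 74.7, 222.5 and 78.8, and plasmacytoid dendritic cell markers at 139.99, 142.9 and 181.5. CD8 or NK markers stood at 71.4, 126.2 and 76.6, and platelet markers at 0.82 to 1.59. Hba-a1, Ighm, Ighd, Cd14, Cox6a2 and Ppbp were at 0 or not in the table, and 6 of 6 Treg and 6 of 6 T cell markers were found. These sums are over the full lists, which include genes that Tregs can express. The plasmacytoid list holds the member Bst2 and Irf8, at 62.5 and 56.8 UPM in GFPhigh, and also Tcf4 and Runx2. The plasma cell list holds Xbp1 and Prdm1, the B cell list Cd74 and the CD8 or NK list Gzmb. The sums of these lists thus do not by themselves show that such cells were present. Cells with at least 2 UMIs of other types, counted without Bst2, Tcf4, Irf8, Runx2, Xbp1, Prdm1, Gzmb and Cd74, which Tregs can express, made up 3.67% [2.91, 4.56] of GFPlow, 7.61% [6.34, 9.05] of GFPmed and 4.90% [3.94, 6.01] of GFPhigh. Among the cells used, 73 barcodes occurred in more than 1 library.

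As background, type I interferons bind the receptor IFNAR1/IFNAR2, whose kinases JAK1 and TYK2 activate transcription factors of the STAT family. With IRF9 these form the complex ISGF3, which binds interferon-stimulated response elements (ISREs) in the promoters of antiviral genes, while interferon gamma acts at gamma-activated sites (GAS). T cells carry a low, tonic interferon signature at rest, and Tregs in inflamed tissue are known to respond to both kinds of interferon.

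The promoters of the members were searched for both elements to show what the list shares in sequence. The motif GAAANNGAAA, searched on both strands (TTTCNNTTTC on the other strand), stood for the ISRE, and the palindrome TTCNNNGAA for the GAS. The window was the 250 bases before each RefSeq gene start (GRCm38.p6). Of 33 members with a promoter entry, 12 (36.4%) held the ISRE motif, against 936 of 27025 genes (3.46%). For the GAS motif it was 5 of 33 (15.2%), against 2197 genes (8.13%). No entry was matched for Dhx58, Zbp1, Mx1, Usp18, Parp9, Parp14, Rtp4 and Ifi27l2a. Besides the genes printed next, the ISRE motif was found for Ifit3b, Stat2, Bst2, Trim30a, Slfn5, Slfn8 and Ifi203. The 5 stretches printed are from genes of the type I core whose window held the ISRE motif. The motif is in capitals, and each stretch is read 5′ to 3′ on the strand of its gene.
Ifit1 chr19:34640770-34640828, plus strand: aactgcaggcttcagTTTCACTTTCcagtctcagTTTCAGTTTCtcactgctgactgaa
Ifit3 chr19:34583358-34583431, plus strand: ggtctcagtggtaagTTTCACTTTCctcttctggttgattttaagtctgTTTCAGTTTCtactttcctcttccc
Isg15 chr4:156200860-156200911, minus strand: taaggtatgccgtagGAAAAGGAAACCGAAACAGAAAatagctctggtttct
Rsad2 chr12:26456548-26456587, minus strand: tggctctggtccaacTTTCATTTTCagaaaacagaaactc
Phf11b chr14:59341356-59341395, minus strand: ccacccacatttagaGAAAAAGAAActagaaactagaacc
Ifit1 and Ifit3 each held 2 copies on the strand opposite to the gene, and the stretch of Ifit3b at chr19:34607754-34607827 has the same letters as that of Ifit3. Isg15 held 3 overlapping copies on the strand of the gene, between 78 and 56 bases before its start. A match describes the letters of the window and is not evidence of binding.

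The 41 genes as a whole stood at 3862 UPM [3785, 3941] (GFPlow), 3818 [3742, 3895] (GFPmed) and 3417 [3341, 3494] (GFPhigh). GFPhigh was thus the lowest bin, and the intervals of GFPlow and GFPmed overlapped. By member, 22 of 41 were lowest in GFPhigh, 10 in GFPlow and 9 in GFPmed. Highest in GFPhigh were 4, against 19 in GFPlow and 18 in GFPmed. This order was not counted over all genes, so the share that genes in general would give is not known. The median log2 ratio of GFPhigh over GFPlow was -0.21 with quartiles of -0.36 and 0.077, beside a median of 0.045 with quartiles of -0.21 and 0.32 over all 10113 genes. There were 12 members higher and 29 lower, where 5554 of the 10113 genes were higher and 4559 lower.

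Few members differed by much. Between GFPhigh and GFPlow, 0 members were higher by over 1.5-fold (12.8% of all genes were) and 4 were lower by over 1.5-fold (8.45% of all genes): Cmpk2, Ifit3, Rsad2 and Rtp4. Counting intervals lay wholly above no difference for 2 members, Isg15 and Ifi27l2a (13.6% of all genes), and wholly below for 15 (9.74%). The members' median count of 462 UMIs was 2.38 times that of all genes, which narrows their intervals. Genes with fewer UMIs pass 1.5-fold more readily by counting error, so the shares past 1.5-fold are not like for like. The 4 lower members were near the share over all genes. Sp100, at 0.58, lay just short of the 1.5-fold limit, and Rtp4, at -0.59, just past it. Without the cells with at least 2 UMIs of other cell types, 1 member was higher by over 1.5-fold (Sp100) and 3 were lower (Cmpk2, Ifit3 and Rsad2). Without the top cell of each member in each bin, 1 was higher (Sp100) and 5 were lower (Cmpk2, Ifit3, Mx1, Rsad2 and Rtp4). Both alternatives were chosen after seeing the data, and values under them are given beside each member whose interval they moved onto or off 0.

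GFPmed and GFPlow were close, with a member median of -0.019 beside -0.034 for all genes and 20 members higher and 21 lower. Of all genes, 4735 were higher and 5378 lower. Past 1.5-fold, 4 members were higher (8.63% of all genes): Isg15, Ifit3b, Eif2ak2 and Oasl2. Parp9 was the only member lower by over 1.5-fold (8.23% of all genes). Intervals lay above no difference for 6 members (8.03% of all genes) and below for 4 (12.8%). GFPhigh over GFPmed gave a member median of -0.17 beside 0.075 for all genes, with 11 higher and 30 lower. Of all genes, 5917 were higher and 4196 lower. Dhx58 was the 1 member higher by over 1.5-fold (10.8% of all genes), and 6 were lower (6.87%): Rsad2, Ifit3, Cmpk2, Mx1, Trim25 and Ifit3b. Without the cells of other types Dhx58 was again the 1 higher and 5 were lower, the same genes less Rsad2. Of the intervals, 0 lay above no difference (14.3% of all genes) and 13 below (6.76%). The 3 comparisons share their libraries in pairs and are not independent of each other. Without the cells whose barcode occurs in more than 1 library, the medians were -0.18, 0.013 and -0.17, in the order in which the comparisons were given.

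**Figure D1:**
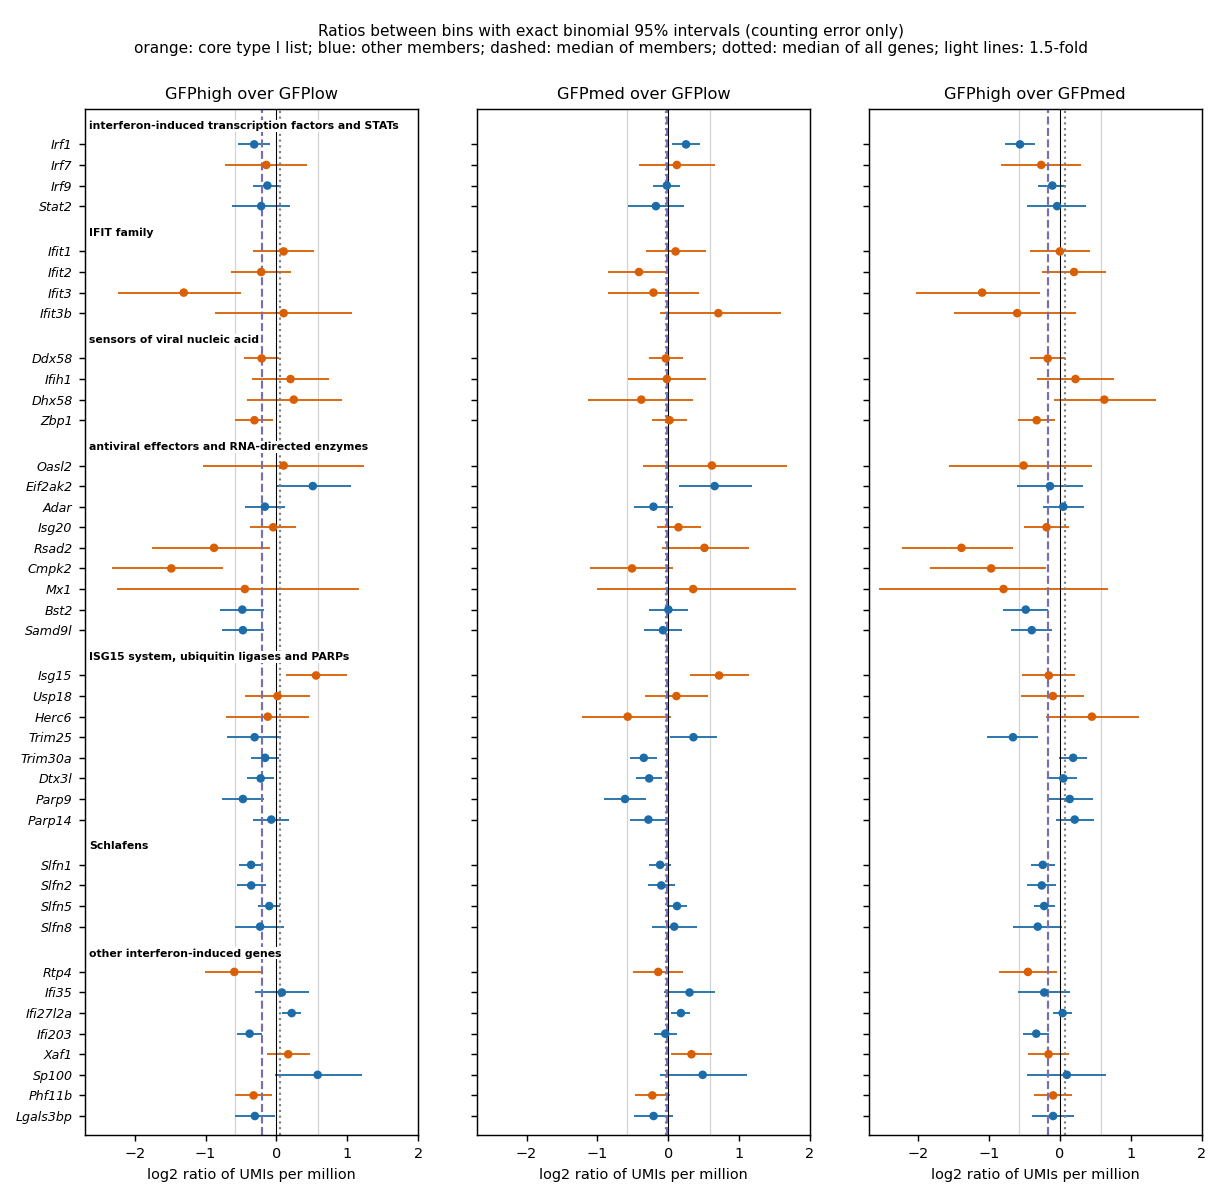
Log2 ratio of UPM for each of the 41 genes in the 3 pairs of bins, with exact conditional binomial 95% intervals, grouped by role. The dashed line of the members lies left of the dotted line of all genes for GFPhigh over GFPlow (-0.21 against 0.045) and for GFPhigh over GFPmed (-0.17 against 0.075), and near it for GFPmed over GFPlow.

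The members were also split into 20 genes, called the type I core, and 21 others. The core was hand-picked, and the split does not divide the members by the interferon that induces them. The ISRE motif was held by 6 of 15 core genes and 6 of 18 other members with a promoter entry. The 20 core genes were the IFIT genes, Isg15, Isg20, Rtp4, Irf7, Usp18, Oasl2, Zbp1, Rsad2, Cmpk2, Mx1, Herc6, Dhx58, Ifih1, Ddx58, Phf11b and Xaf1. Together the core genes stood at 862, 877 and 767 UPM, in the order low, med, high. Their median ratio of GFPhigh over GFPlow was -0.13 with 12 of 20 lower. That of the other 21 members was -0.22 with 17 of 21 lower, and 4559 of all 10113 genes were lower. With all cells used, the 4 members past 1.5-fold were core genes. The spread was thus wider in the core, from -1.48 to 0.56, than outside it, from -0.48 to 0.58, where the median count was 2.96 times as high.

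The transcription factors of the pathway come first. Stat2, a subunit of ISGF3, stood at 47.6 UPM [39.4, 57.1] (GFPlow), 42.2 [34.5, 51.03] (GFPmed) and 40.96 [33.1, 50.2] (GFPhigh). Its log2 ratio was -0.22 [-0.63, 0.19] between GFPhigh and GFPlow, -0.17 [-0.57, 0.22] between GFPmed and GFPlow, and -0.042 [-0.46, 0.37] between GFPhigh and GFPmed. The 3 intervals of its level overlapped, so that no order of the bins could be told at this depth.

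Irf7, the factor that amplifies interferon production, stood at 23.4 UPM [17.7, 30.3] (GFPlow), 25.5 [19.6, 32.5] (GFPmed) and 21.1 [15.6, 28.03] (GFPhigh), with log2 ratios of -0.14 [-0.73, 0.43], 0.12 [-0.42, 0.66] and -0.27 [-0.84, 0.29] in the same order. Its intervals overlapped in all 3 bins. Irf9, the DNA-binding part of ISGF3, stood at 186.8 UPM (GFPlow), 184.3 (GFPmed) and 170.9 (GFPhigh), with log2 ratios of -0.13, -0.019 and -0.11. Each triple of ratios keeps the order high over low, med over low, high over med. Irf1, a factor that interferon gamma induces strongly, stood at 158.9 UPM (GFPlow), 189.1 (GFPmed) and 127.7 (GFPhigh), and its ratios were -0.31, 0.25 and -0.56. Irf1 was highest in GFPmed and lowest in GFPhigh, and none of its 3 ratios had an interval that reached 0. All 4 factors stood lower in GFPhigh than in either other bin.

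Among the IFIT proteins, IFIT1 binds viral RNA that lacks the host's cap methylation. The 4 IFIT genes lie in a cluster on chromosome 19 (GRCm38, from Ifit2 at 34550694 to the end of Ifit1 at 34650009). Ifit1 stood at 37.8 UPM [30.4, 46.3] (GFPlow), 40.6 [33.1, 49.3] (GFPmed) and 40.5 [32.7, 49.7] (GFPhigh). Its ratios, 0.10 [-0.33, 0.53], 0.10 [-0.32, 0.53] and -0.0020 [-0.43, 0.42], all held 0, and the 3 levels lay within each other's intervals.

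Ifit3 stood at 18.9 UPM [13.8, 25.2] (GFPlow), 16.3 [11.7, 22.1] (GFPmed) and 7.49 [4.36, 11.99] (GFPhigh), from 46, 41 and 17 UMIs. Its level in GFPhigh was below those of both other bins, with -1.31 [-2.23, -0.50] against GFPlow and -1.10 [-2.03, -0.28] against GFPmed, while GFPmed over GFPlow gave -0.21 [-0.85, 0.43]. GFPhigh over GFPmed was -0.85 [-1.80, 0.018] without the cells of other types, an interval that held 0. The neighbouring copy Ifit3b, with 74 UMIs in all, stood at 8.21 UPM (GFPlow), 13.5 (GFPmed) and 8.81 (GFPhigh) and did not share that order. Its ratio of GFPhigh over GFPmed was -0.89 [-1.88, -0.0026] without those cells, where the interval with all cells held 0. Of the Ifit3 transcript 97.4% matches Ifit3b at 95% identity or more, so reads may be split between the 2 genes in a way the table does not show. Summed, they stood at 27.1 UPM [20.96, 34.5] (GFPlow), 29.9 [23.5, 37.4] (GFPmed) and 16.3 [11.5, 22.5] (GFPhigh), with a ratio of -0.72 [-1.36, -0.13] for GFPhigh over GFPlow and -0.86 [-1.48, -0.29] over GFPmed. The sum thus kept GFPhigh lowest, with a smaller difference than Ifit3 alone. Ifit2 stood at 43.5 UPM (GFPlow), 32.6 (GFPmed) and 37.4 (GFPhigh), with ratios of -0.22 [-0.65, 0.21], -0.41 [-0.85, 0.015] and 0.20 [-0.26, 0.65], and its intervals held 0. Without the cells of other types that of GFPmed over GFPlow did not, at -0.49 [-0.94, -0.047].

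Among the sensors of viral nucleic acid, Ddx58 (RIG-I, a sensor of viral RNA) stood at 120.7 UPM (GFPlow), 117.8 (GFPmed) and 104.4 (GFPhigh) and had ratios of -0.21, -0.035 and -0.17. Ifih1 (MDA5, which senses long double-stranded RNA) stood at 23.4 UPM (GFPlow), 23.1 (GFPmed) and 26.9 (GFPhigh), with ratios of 0.20 [-0.35, 0.75], -0.020 [-0.57, 0.53] and 0.22 [-0.32, 0.76]. Dhx58 (LGP2, which modulates the other RNA helicases of the family) stood at 15.6 UPM (GFPlow), 11.9 (GFPmed) and 18.5 (GFPhigh), with 0.24 [-0.42, 0.92], -0.38 [-1.13, 0.34] and 0.62 [-0.079, 1.36]. Even the highest of these ratios, that of Dhx58 for GFPhigh over GFPmed, had an interval that held 0, and without the cells of other types it was 0.74 [0.0027, 1.51]. Zbp1, a sensor of Z-form nucleic acid that can start necroptosis, stood at 110.4 UPM (GFPlow), 111.9 (GFPmed) and 88.97 (GFPhigh) and was lowest in GFPhigh, with intervals below 0, at -0.31 [-0.58, -0.043] against GFPlow and -0.33 [-0.60, -0.064] against GFPmed. Those of the other 3 sensors held 0 with all cells used. The group split evenly in GFPhigh over GFPlow, 2 higher and 2 lower.

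Among the antiviral effectors, Cmpk2, a mitochondrial nucleotide kinase next to Rsad2 on chromosome 12, stood at 25.04 UPM [19.2, 32.2] (GFPlow), 17.5 [12.7, 23.5] (GFPmed) and 8.81 [5.38, 13.6] (GFPhigh). Its ratio of GFPhigh over GFPlow, -1.48 [-2.31, -0.76], was the lowest of the 41 and the only one whose whole interval was past 1.5-fold in that comparison. GFPmed lay between the other bins, at -0.51 [-1.11, 0.067] over GFPlow, with GFPhigh at -0.97 [-1.83, -0.20] over GFPmed. Without the cells of other types these became -0.80 [-1.47, -0.17] and -0.77 [-1.701, 0.085], so that the first interval no longer held 0 and the second did.

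Rsad2 (viperin, which makes a chain-terminating nucleotide against viruses) stood at 16.4 UPM [11.7, 22.4] (GFPlow), 23.5 [17.9, 30.3] (GFPmed) and 8.81 [5.38, 13.6] (GFPhigh). GFPhigh was lowest, at -0.88 [-1.75, -0.090] against GFPlow and -1.39 [-2.22, -0.66] against GFPmed. In GFPmed 1 cell held 26 of the 59 Rsad2 UMIs of its bin, 44.1%, and 2399 of its 4141 UMIs were of erythroid markers. Without the cells with at least 2 UMIs of other cell types, Rsad2 stood at 16.8 UPM (GFPlow), 10.1 (GFPmed) and 9.37 (GFPhigh), so that GFPlow was highest and GFPmed no longer differed from GFPhigh by over 1.5-fold, at -0.11 [-1.05, 0.82]. Without the top cell of each bin alone it was -0.79 [-1.75, 0.075]. Without those cells the members past 1.5-fold in GFPmed over GFPlow were Ifit3b and Sp100 (higher) and Cmpk2, Parp9 and Rsad2 (lower).

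Bst2 (tetherin, which holds budding virus at the cell surface) stood at 87.4 UPM [76.1, 100.01] (GFPlow), 87.6 [76.4, 99.9] (GFPmed) and 62.5 [52.7, 73.7] (GFPhigh), lowest in GFPhigh, with ratios of -0.48 [-0.80, -0.17] against GFPlow and -0.48 [-0.80, -0.17] against GFPmed, with GFPmed and GFPlow at 0.0020 [-0.28, 0.28]. Samd9l, a restriction factor of poxviruses, was also lowest in GFPhigh, at 99.8 UPM (GFPlow), 94.7 (GFPmed) and 71.8 (GFPhigh), with ratios of -0.47, -0.074 and -0.40. The interval of Bst2 in GFPhigh lay below those of the other 2 bins, and that of Samd9l overlapped the one of GFPmed. Eif2ak2 (PKR, the kinase that halts translation on double-stranded RNA) went the other way, at 22.2 UPM (GFPlow), 35.03 (GFPmed) and 31.7 (GFPhigh), with 0.51 [-0.013, 1.05], 0.65 [0.15, 1.18] and -0.14. Its interval excluded 0 in GFPmed over GFPlow alone, and without the cells of other types that interval held 0 too, at 0.48 [-0.054, 1.03].

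Adar, which edits double-stranded RNA, stood at 95.2 UPM (GFPlow), 82.4 (GFPmed) and 85.01 (GFPhigh), with ratios of -0.16, -0.21 and 0.045, and the exonuclease Isg20 at 67.3 UPM (GFPlow), 74.4 (GFPmed) and 65.2 (GFPhigh), with -0.046, 0.14 and -0.19. The intervals of both genes held 0 in all 3 comparisons. The 2 sparse members of the group were Oasl2, an oligoadenylate synthetase-like gene, and Mx1, an interferon-induced GTPase. Oasl2 stood at 6.16, 9.55 and 6.61 UPM and Mx1 at 3.69, 4.78 and 2.64 UPM. Their 54 and 27 UMIs in all were too few to order the bins. By count, 7 of the 9 effectors stood lower in GFPhigh than in GFPlow (median -0.45) and 8 of 9 lower than in GFPmed (median -0.48). The 9 include the 2 sparse members. Of all 10113 genes, 4559 stood lower in GFPhigh than in GFPlow and 4196 lower than in GFPmed.

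**Figure D2:**
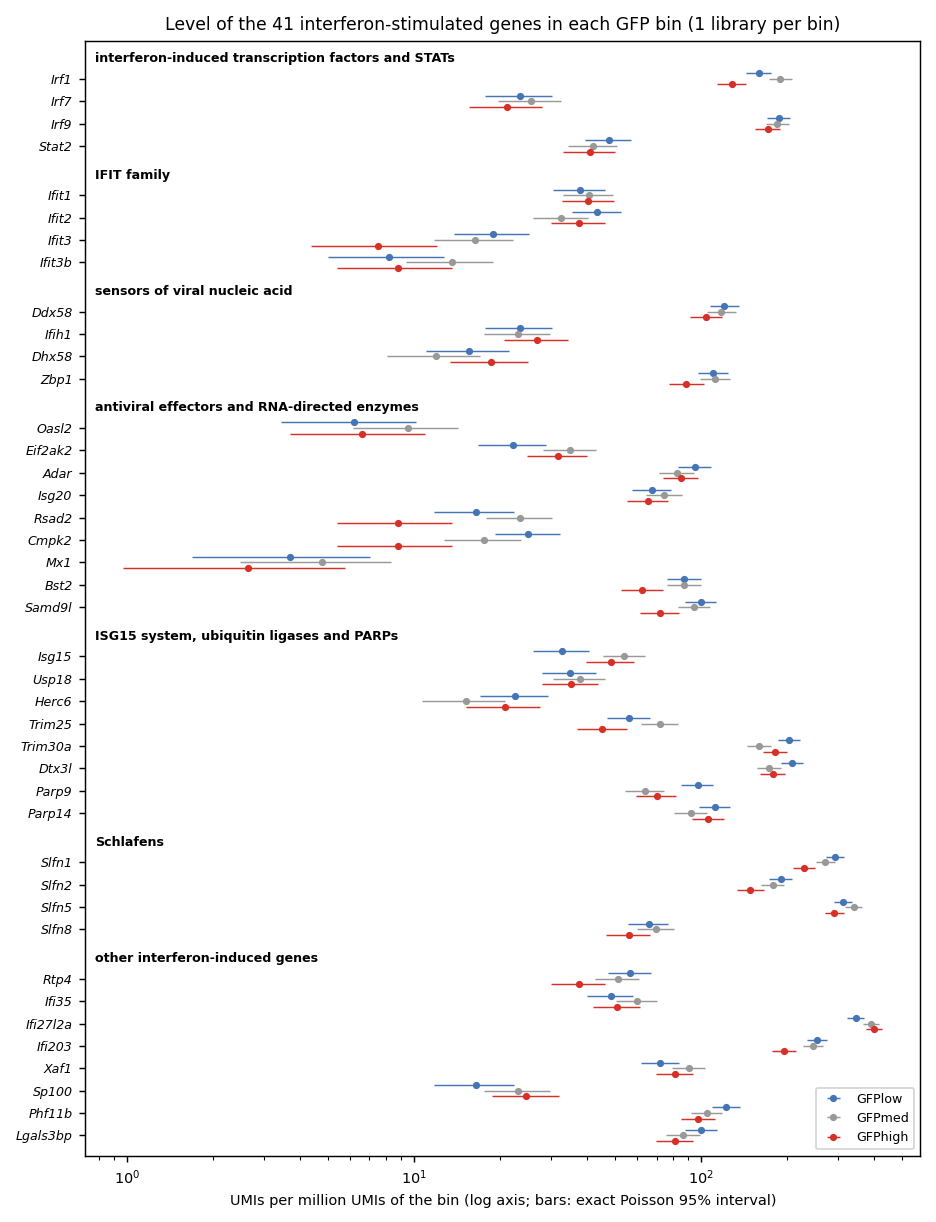
UMIs per 1000000 UMIs (log axis) of the 41 genes by bin, grouped by role; bars are exact Poisson 95% intervals of 1 library. Levels of different genes are not adjusted for length and are not to be compared with each other. Within genes, GFPhigh is the lowest bin for 22 of the 41, a count not made over all genes.

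Isg15, a ubiquitin-like protein that is joined to other proteins during the interferon response, stood at 32.8 UPM [26.04, 40.9] (GFPlow), 54.1 [45.4, 64.03] (GFPmed) and 48.5 [39.8, 58.4] (GFPhigh). It was lower in GFPlow than in the other bins, with 0.56 [0.13, 0.99] for GFPhigh over GFPlow and 0.72 [0.31, 1.14] for GFPmed over GFPlow, while GFPhigh over GFPmed gave -0.16 [-0.54, 0.21]. It was the 1 core gene whose interval lay above 0 in GFPhigh over GFPlow, and 63.8% of its transcript matches the gene model AC151275.1 at 95% identity or more. Without the cells of other types, GFPmed over GFPlow was 0.57, just under 1.5-fold. Usp18, the protease that removes ISG15 and damps the receptor, stood level at 34.9 UPM (GFPlow), 37.8 (GFPmed) and 35.2 (GFPhigh), with ratios of 0.015, 0.12 and -0.10, and Herc6, the mouse ligase for ISG15, at 22.6 UPM (GFPlow), 15.1 (GFPmed) and 20.7 (GFPhigh), with -0.12 [-0.72, 0.46], -0.57 [-1.21, 0.045] and 0.45 [-0.20, 1.11]. The intervals of these 2 genes held 0 in each comparison.

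Trim25, a ubiquitin ligase that acts on RIG-I, stood at 56.2 UPM [47.2, 66.5] (GFPlow), 72.05 [61.9, 83.3] (GFPmed) and 45.4 [37.03, 55.02] (GFPhigh). GFPmed was its highest bin, at 0.36 [0.029, 0.69] over GFPlow, with GFPhigh at -0.66 [-1.03, -0.31] over GFPmed and -0.31 [-0.69, 0.069] over GFPlow. Trim30a, a regulator of NF-kappa-B signalling, stood at 202.8 UPM (GFPlow), 159.6 (GFPmed) and 181.5 (GFPhigh), with ratios of -0.16, -0.35 and 0.19, and was lowest in GFPmed. Its ratio of GFPhigh over GFPmed was 0.25 [0.042, 0.47] without the cells of other types.

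Dtx3l and Parp9 form a complex that marks histones, and their genes overlap on opposite strands of chromosome 16, so that their reads can be told apart only if the counting used the strand. Dtx3l stood at 207.7 UPM (GFPlow), 172.4 (GFPmed) and 177.9 (GFPhigh), with -0.22, -0.27 and 0.046, and Parp9 at 97.3 UPM [85.3, 110.5] (GFPlow), 63.7 [54.2, 74.4] (GFPmed) and 70.03 [59.6, 81.8] (GFPhigh). Parp9 was highest in GFPlow, with -0.47 [-0.77, -0.18] for GFPhigh over GFPlow and -0.61 [-0.91, -0.32] for GFPmed over GFPlow, with GFPhigh and GFPmed not told apart at 0.14 [-0.19, 0.46]. The neighbouring Parp14, an ADP-ribosyltransferase, stood at 111.7 UPM (GFPlow), 91.9 (GFPmed) and 106.2 (GFPhigh), with -0.073 [-0.33, 0.18], -0.28 [-0.54, -0.022] and 0.21 [-0.059, 0.47]. Trim30a, Dtx3l, Parp9 and Parp14 were thus all lowest in GFPmed, and GFPmed over GFPlow had an interval below 0 for each of these 4 and for no other member with all cells used. The same held for Cmpk2, Ifit2 and Phf11b as well once the cells of other types were left out.

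The Schlafens, regulators of T cell quiescence and of translation, lie together on chromosome 11. Slfn2, which maintains T cell quiescence, stood at 190.1 UPM [173.2, 208.2] (GFPlow), 177.5 [161.4, 194.8] (GFPmed) and 148.4 [133.01, 165.2] (GFPhigh). Its level in GFPhigh was lowest, with -0.36 [-0.56, -0.15] against GFPlow and -0.26 [-0.47, -0.051] against GFPmed, and GFPmed and GFPlow at -0.098 [-0.29, 0.092]. Slfn1 stood at 293.5 UPM (GFPlow), 271.1 (GFPmed) and 229.04 (GFPhigh), with ratios of -0.36, -0.11 and -0.24, Slfn5 at 312.4 UPM (GFPlow), 340.3 (GFPmed) and 291.1 (GFPhigh), with -0.10, 0.12 and -0.22, and Slfn8 at 65.7 UPM (GFPlow), 69.7 (GFPmed) and 55.9 (GFPhigh), with -0.23, 0.084 and -0.31. All 4 Schlafens were lowest in GFPhigh, and the intervals of GFPhigh over GFPmed lay below 0 for 3 of them, Slfn8 being the exception. Without its top cell in each bin Slfn8 was at -0.35 [-0.70, -0.006].

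Ifi27l2a, a small membrane protein strongly induced by interferon and the member with the most UMIs, stood at 346.1 UPM [323.1, 370.2] (GFPlow), 391.7 [367.6, 416.9] (GFPmed) and 401.7 [376.05, 428.6] (GFPhigh). It too was lowest in GFPlow, with 0.21 [0.078, 0.35] for GFPhigh over GFPlow and 0.18 [0.044, 0.31] for GFPmed over GFPlow, and GFPhigh over GFPmed gave 0.036 [-0.095, 0.17]. These differences were small beside those of Isg15, which shared their direction.

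Rtp4, a Golgi chaperone of receptors that also restricts viruses, stood at 56.7 UPM [47.6, 66.9] (GFPlow), 51.3 [42.9, 61.01] (GFPmed) and 37.4 [29.9, 46.3] (GFPhigh). It was lowest in GFPhigh, with -0.59 [-1.005, -0.20] against GFPlow and -0.45 [-0.87, -0.050] against GFPmed, and GFPmed over GFPlow gave -0.14 [-0.50, 0.21]. With the cells of other types left out, GFPhigh stood at -0.55 [-0.96, -0.15] against GFPlow, no longer past 1.5-fold, and at -0.39 [-0.82, 0.017] against GFPmed, an interval that held 0. Ifi203, a member of the PYHIN family of DNA-binding proteins, stood at 253.7 UPM (GFPlow), 246.4 (GFPmed) and 195.1 (GFPhigh), with ratios of -0.38, -0.042 and -0.34. GFPhigh was again the lowest bin, with an interval below those of the other 2.

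Phf11b stood at 122.3 UPM (GFPlow), 104.7 (GFPmed) and 97.8 (GFPhigh), with -0.32, -0.22 and -0.098, and 73.0% of its transcript matches Phf11a. Lgals3bp, a secreted galectin-binding protein, stood at 100.2 UPM (GFPlow), 86.8 (GFPmed) and 81.04 (GFPhigh), with -0.30, -0.21 and -0.098. Both were lower in GFPhigh than in GFPlow with intervals that excluded 0. The interval of Lgals3bp held 0 without the cells of other types, at -0.28 [-0.57, 0.0086], and Phf11b was at -0.31 [-0.57, -0.054] for GFPmed over GFPlow. Xaf1, a pro-apoptotic antagonist of XIAP, stood at 72.3 UPM (GFPlow), 90.8 (GFPmed) and 81.04 (GFPhigh), with 0.17, 0.33 and -0.16, highest in GFPmed. Sp100, a protein of PML nuclear bodies, stood at 16.4 UPM (GFPlow), 23.1 (GFPmed) and 24.7 (GFPhigh), with 0.58 [-0.024, 1.21], 0.49 [-0.11, 1.11] and 0.096 [-0.46, 0.65], and Ifi35 at 48.4 UPM (GFPlow), 59.7 (GFPmed) and 51.1 (GFPhigh), with 0.077, 0.30 and -0.22. The intervals of Sp100 and Ifi35 held 0 in all 3 comparisons. Without the cells of other types Sp100 was at 0.66 [0.038, 1.31] for GFPhigh over GFPlow and 0.65 [0.035, 1.29] for GFPmed over GFPlow.

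Other genes of the pathway did not share 1 direction. Of 40 listed, 30 had at least 20 UMIs, split into 15 higher and 15 lower for GFPhigh over GFPlow, with a median of 0.012. Over all 10113 genes, 5554 were higher and 4559 lower, with a median of 0.045. By over 1.5-fold, 5 of the 30 were higher (12.8% of all genes were) and 4 lower (8.45% of all genes). The receptor chains for type I interferon stood at 98.5, 86.8 and 91.6 UPM (Ifnar1) and 94.8, 79.6 and 117.2 UPM (Ifnar2), with GFPhigh over GFPlow at -0.10 [-0.38, 0.17] and 0.30 [0.045, 0.57]. Ifngr1, the ligand-binding chain of the interferon gamma receptor, stood at 331.3 UPM [308.8, 354.97] (GFPlow), 179.9 [163.7, 197.3] (GFPmed) and 143.6 [128.4, 160.1] (GFPhigh), which is -1.20 [-1.40, -1.02] for GFPhigh over GFPlow. Its partner Ifngr2 went the other way, from 33.3 to 46.6 and 55.5 UPM (0.74 [0.32, 1.16]).

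The kinase Jak1 stood at 804.2 UPM (GFPlow), 742.8 (GFPmed) and 776.1 (GFPhigh). Its ratio was -0.051 [-0.15, 0.042] for GFPhigh over GFPlow and -0.11 [-0.21, -0.023] for GFPmed over GFPlow. Socs3, an inhibitor of cytokine receptors, stood at 252.5 UPM (GFPlow), 200.6 (GFPmed) and 133.9 (GFPhigh), with -0.91 [-1.12, -0.71] for GFPhigh over GFPlow. Past 1.5-fold in GFPhigh over GFPlow were also Irf8 (1.68) and Irf4 (0.72), lymphoid members of the IRF family, Mavs (1.69), the adaptor of the RNA sensors, and the ISG15 enzymes Uba7 (0.61) and Ube2l6 (-0.65). The E1 enzyme Uba7 was thus lowest in GFPlow and the E2 enzyme Ube2l6 lowest in GFPhigh.

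In GFPmed over GFPlow, Irf4 (-1.08), Mavs (1.05), Uba7 (0.77) and Ifngr1 (-0.88) were past 1.5-fold, and in GFPhigh over GFPmed Irf4 (1.80), Irf8 (1.37), Mavs (0.63) and Ube2l6 (-0.62), among genes with at least 100 UMIs. Of the 8 interferon genes listed (Ifnb1, Ifna2, Ifna4, Ifne, Ifnk, Ifng, Ifnl2 and Ifnl3), 7 had 0 UMIs in every bin. A count of 0 allows up to 1.23, 1.19 and 1.32 UPM. Ifng had 0, 3 and 6 UMIs.

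Single cells were compared after thinning each to 500 UMIs, so that depth was equal. Means of 1.70, 1.69 and 1.53 of the 41 genes were then detected per cell, against 3.31, 4.32 and 3.23 before thinning, when GFPmed was deepest. The share of cells with at least 3 different members was 24.4% [22.6, 26.3] (GFPlow), 24.7% [22.5, 26.9] (GFPmed) and 19.7% [17.9, 21.6] (GFPhigh). GFPhigh was the lowest, and the intervals of the other 2 bins overlapped. A second random draw of the thinning gave 21.8%, 23.7% and 19.4%, so the size of the gap between GFPlow and GFPhigh depended on the draw. No cell type in these libraries is known to lack the members, so the share that free RNA gives could not be set apart, and its part in the shares was not tested.

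The number of members per cell had no gap that would set responding cells apart. In GFPlow 431 cells showed 0 members, 678 showed 1, 496 showed 2, 312 showed 3 and 14.7% of cells thus lay on the cut at 3, with higher numbers thinning out to 1 cell with 15. Before thinning, 93.7% of GFPlow cells had at least 1 member. For the core, 69.8% of GFPlow cells, 68.2% of GFPmed and 72.4% of GFPhigh showed 0 of the 20 genes. At least 3 core genes were found in 34 cells of GFPlow (1.60% [1.11, 2.23]), 24 of GFPmed (1.56% [1.003, 2.31]) and 19 of GFPhigh (1.07% [0.65, 1.67]), with overlapping intervals. The cut at 3 is a range on a falling curve and not a cell type: 5.61%, 4.03% and 4.28% of cells lay just under it with 2 core genes.

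**Figure D3:**
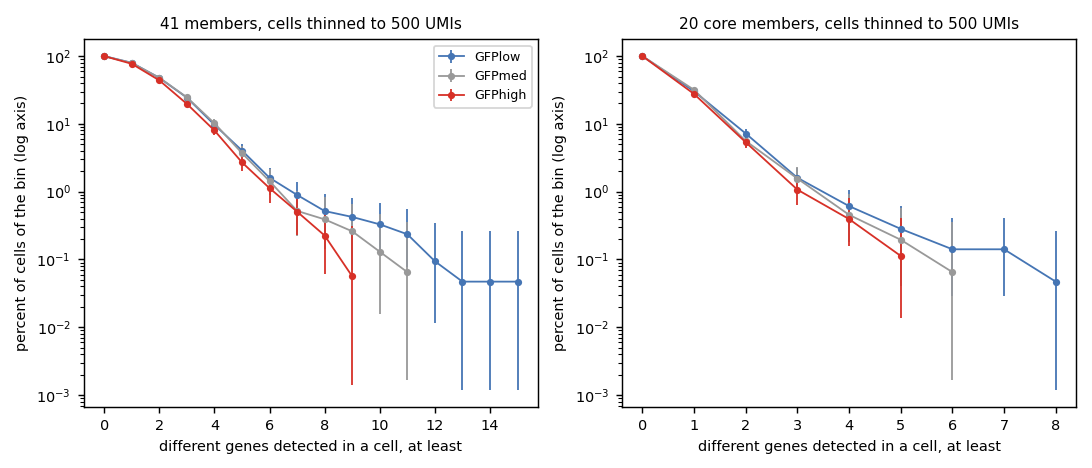
Percent of the cells of each bin (log axis) with at least the given number of different genes detected, after thinning to 500 UMIs, for all 41 members (left) and the 20 core genes (right), with exact binomial 95% intervals. The curves fall without a step, and GFPhigh lies lowest at 3 or more members (19.7% against 24.4% and 24.7%).

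Core genes were found in the same cells more often than the product of their single shares gives. Over the 190 pairs of core genes, 324 cell-pair coincidences were seen in GFPlow where the products sum to 157.6, a ratio of 2.06. GFPmed had 172 against 110.03 (1.56), and the ratio was 1.67 in GFPhigh. Core genes with the 21 other members gave ratios of 1.29, 1.28 and 1.2003, and the other members among themselves 1.12, 1.07 and 1.08. The excess was thus largest inside the core in each bin, and without cells of other types it was 2.07, 1.54 and 1.66. In a second draw it was 1.95, 1.80 and 1.67, so the order of the bins is not to be read from it. Every pair of core genes in a cell counts, so the few cells with many core genes weigh heavily in these sums. At least 4 core genes were found in 13 thinned cells of GFPlow, 7 of GFPmed and 7 of GFPhigh. The part of the excess that rests on such cells was not tested, so it is not shown to hold across core-positive cells. These are descriptions of sparse counts, with no test and no ratio for genes outside the list.

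By member, Ifit1 was detected in 83 thinned cells of the 3 bins, and 56.6% [45.3, 67.5] of these held another core gene, against 28.7% [27.5, 29.9] of cells without Ifit1. The difference stood in each bin, at 59.4% against 29.1% in GFPlow, 53.8% against 30.6% in GFPmed and 56% against 26.6% in GFPhigh. For Ifit3 the share was 72.2% [54.8, 85.8] of 36 cells, for Rsad2 63.6% [45.1, 79.6] of 33, for Irf7 54.1% [40.8, 66.9] of 61, for Usp18 47.1% [36.3, 58.1] of 87 and for Rtp4 46.5% [37.7, 55.5]. Isg15, at 39.1% [30.2, 48.7] against 28.3%, stood nearer to the other cells. For each of these 7 genes the interval lay above that of the cells without it.

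Not all core genes did. Phf11b (30.3% of 284 cells against 25.9%), Ifit2 (30.8% against 28.4%), Herc6 (30.5% of 59 against 29.0%), Ifih1 (31.2% of 64 against 29.0%) and Cmpk2 (28.6% of 42 against 29.2%) had intervals that held the share of cells without them. In all, 9 of 20 core genes and 5 of the other 21 had an interval wholly above that of the cells without, and 0 wholly below. No such count over genes outside the list stands beside these. The 5 outside the core were Parp9 (40.7%), Slfn8 (39.4%), Stat2 (39.7%), Lgals3bp (38.97%) and Ifi27l2a (34.7%), while Slfn1 (30.4% of 565 cells against 29.7%) and Irf1 (32.2% of 382 against 29.6%) were near the base level.

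**Figure D4:**
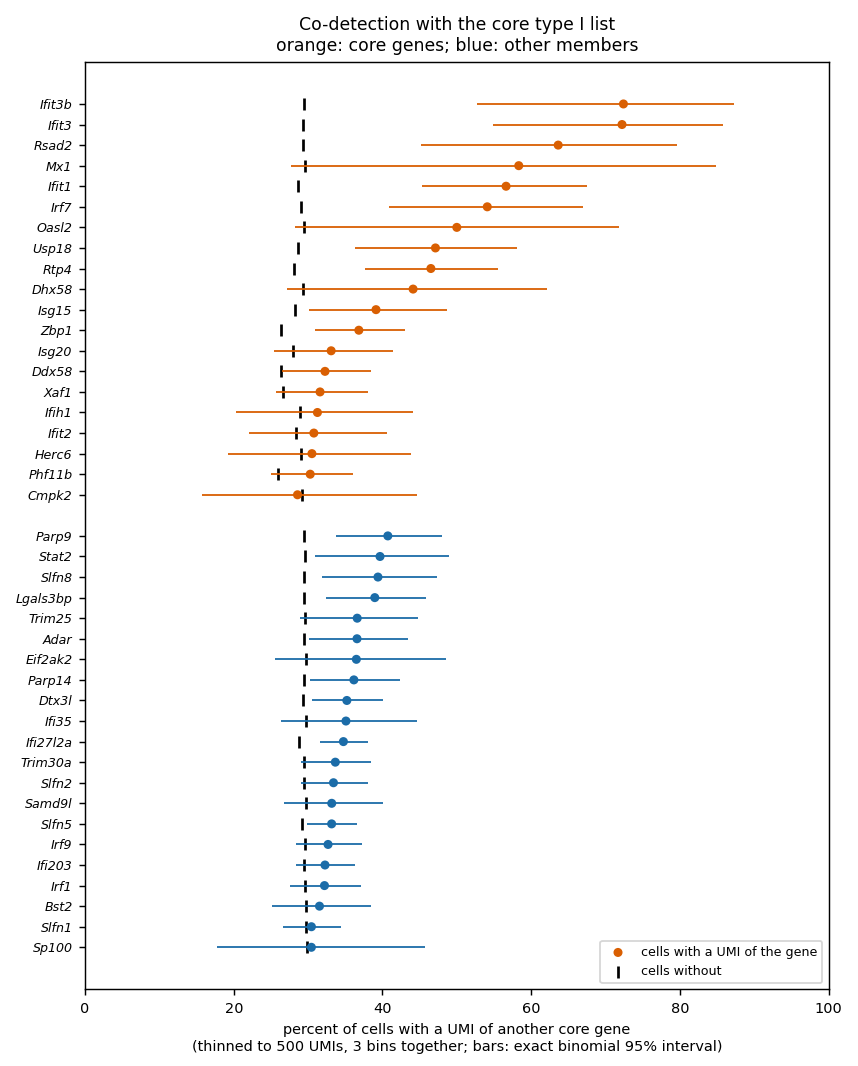
Percent of cells with a UMI of another core gene among cells with a UMI of the named gene (points, exact binomial 95% interval) and without one (black ticks), 5435 cells of the 3 bins thinned to 500 UMIs. Ifit3b, Ifit3, Rsad2, Ifit1, Irf7, Usp18 and Rtp4 lie well right of their ticks, near 29%, while Cmpk2, Phf11b, Slfn1 and Sp100 lie on or near theirs.

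Single pairs rested on few cells. Of the 540 pairs for which the products predict at least 2 cells, 380 had a ratio above 1 and 39 above 2. Pairs of genes outside the list were not counted, so no base share stands beside these. The highest ratio of the 540 pairs was that of Irf7 with Zbp1, in 11 cells where 2.86 follow from the shares. Zbp1 with Rtp4 shared 16 cells against 6.31, Ifit1 with Phf11b 12 against 4.34, Ifit1 with Zbp1 10 against 3.99, and Ifit1 with Bst2 10 against 3.11. Below that minimum, Ifit1 met Ifit3 in 7 cells against 0.556 and Rsad2 in 7 against 0.505. The 4 IFIT genes among themselves shared 25 cell pairs against 3.99, of which 7 were Ifit3 with Ifit3b, whose transcripts are nearly alike, while the 4 Schlafens gave a ratio of 1.10.

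Genes outside the list were measured in cells with 0, 1, 2 and 3 or more core genes. Over the 3 bins Jak1 stood at 770.02, 794.8, 750.5 and 696.6 UPM, and Foxp3 at 361.1, 327.02, 370.8 and 457.1. Ifnar1 stood at 95.7, 85.7, 77.7 and 76.2 UPM and Ifngr1 at 219.4, 214.1, 260.1 and 185.03, with overlapping intervals at each step. Median depth lay between 1077 and 1220 UMIs in all 4 groups of cells and was lowest with 3 or more core genes.

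The cells with the most different core genes mostly carried Treg or T cell markers. Unthinned, 14 cells held at least 7 core genes, 7 of them from GFPlow, 4 from GFPmed and 3 from GFPhigh, and 13 had a Treg or T cell marker and fewer than 2 UMIs of other cell types. A GFPlow cell of 823 UMIs held 10 core genes and 20 members, with 1 UMI of the Treg and 3 of the T cell markers. In GFPmed, a cell of 2228 UMIs held 10 core genes, 7 Ifit1 UMIs among them, with 12 UMIs of Treg markers. The exception was a GFPmed cell of 3091 UMIs with 17 core genes and 30 members, which had 67 UMIs of B cell markers and 0 of the Treg and T cell markers. By core UMIs the picture differed. That cell held 43, the most of any cell, against at most 16 in a GFPlow cell and 14 in a GFPhigh cell. A GFPmed cell with 2399 UMIs of erythroid markers held 39 core UMIs from 4 core genes, and 0 UMIs of the Treg and T cell markers. In cells with at least 2 UMIs of other types, the core stood at 1257 UPM in GFPmed against 836 in the remaining cells, but at 625 against 874 in GFPlow and 665 against 773 in GFPhigh.

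The 5% of cells with the most core UMIs held 30.5% (GFPlow), 29.3% (GFPmed) and 29.2% (GFPhigh) of them. For the other members these shares were 17.2%, 16.3% and 18.0%. The share was alike in the 3 bins for each list, and higher for the core, which has fewer UMIs per cell, and depth per cell was not equalised here.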

How the data were processed

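The authors deposited 1 table of raw UMI counts per gene for 6106 cells, made by inDrops (droplet capture, oligo-dT priming, in vitro transcription) and NextSeq500 sequencing, per the labels' protocols. TopHat2, SAMtools and the mm10 build are named in the submitters' processing notes. Their versions, the gene annotation, the counter, the collapsing of UMIs and the use of strand are not given in the sources used here. The oligo-dT capture counts 3′ ends, so levels were not divided by gene length. The total of the table was 98.7% of the UMIs in the labels.

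Cells were assigned to bins by their titles, and cells under 500 UMIs were left out. UMIs were summed per bin and divided by the bin total. Log2 ratios were taken after adding 0.5 UMI. Intervals are exact 95% ones: Poisson for levels, conditional binomial for ratios, Clopper-Pearson for shares. A gene was called past 1.5-fold by its ratio alone. Genes needed 20 UMIs over the 3 bins. For single cells, each was thinned to 500 UMIs without replacement (seed 1). A count of 0 was given the limit of 3 counts.

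Members with at least 100 UMIs are given with levels and ratios, the 3 others by level. Isg15, Ifit1, Ifit3, Irf7, Stat2, Bst2, Slfn2, Ifi27l2a and the 4 highest and 4 lowest members of each pair of bins were to be given in full, and, of the pathway, Ifnar1, Ifnar2, Ifngr1, Jak1 and genes past 1.5-fold with at least 100 UMIs. The levels of 1 gene of the pathway list are not reported here. The members, the core list, the pathway list and the markers were chosen with earlier results of these data known. Doublets were not called: cells with at least 2 UMIs of other cell types were left out as an alternative. Gene positions and overlaps came from GENCODE M21 (GRCm38), promoters from RefSeq (GRCm38.p6). Transcripts were compared with BLAST at 95% identity over 50 bases or more. By that measure, 8 members share at least 20% of their transcript with another gene: Ifit3, Ifit3b, Phf11b, Isg15, Herc6, Adar, Slfn2 and Ifi203. On either strand, 23 members overlap no other gene. The calculations were tested on simulated data. Python 3.11.15, numpy 2.4.6, scipy 1.17.1, pandas 2.3.3 and, for TMM factors, edgeR 4.0.16 were used.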

Additional observations from a re-analysis of the deposited data

Results flagged for a closer look

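Cells under 500 UMIs took no part in the comparisons but carried the members' transcripts too. In them the 41 genes stood at 3853 UPM [3482, 4254] in GFPlow, 3559.8 UPM [3074, 4101] in GFPmed and 3662 UPM [3319, 4030] in GFPhigh, beside 3862, 3818 and 3417 UPM in the cells used. The intervals held the level of the cells used in all 3 bins.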

How the results depend on the processing

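Over 13 alternatives each (TMM scaling, equal weight per cell, other minimums for cells and genes, 2 UMIs added, leaving out cells of other types, the top cell of each member, cells with 3 or more members or shared barcodes, and the core or the other members alone), the members' median stayed below 0 for GFPhigh over GFPlow (-0.26 to -0.11) and GFPhigh over GFPmed (-0.25 to -0.13). For GFPmed over GFPlow it ranged from -0.045 to 0.096 and kept its sign in 9 of 13. Members past 1.5-fold numbered 4, 5 and 7 (GFPhigh over GFPlow, GFPmed over GFPlow, GFPhigh over GFPmed). At 2-fold they numbered 2, 0 and 2, and with the whole interval past 1.5-fold 1, 0 and 1. For GFPhigh over GFPmed that 1 member was Rsad2 (-1.39), which was at -0.11 [-1.05, 0.82] without the cells of other types. With members of at least 100 UMIs alone, GFPmed over GFPlow had 3. A stricter limit leaves fewer by construction. The share of cells with at least 3 members moved with depth: unthinned it was 56.3%, 70.7% and 56.1% (low, med, high), and thinned to 1000 UMIs 54.7%, 55.4% and 48.97%. At the main thinning the share was 9.70%, 10.2% and 8% for at least 4 members and 1.60%, 1.56% and 1.07% for the core alone. Without Ifit3b, Slfn1 and Slfn8 it was 20.8%, 21.2% and 16.9%. A second draw gave 21.8% for GFPlow. The co-detection ratio of core pairs thinned to 1000 UMIs was 1.599 (GFPlow), 1.602 (GFPmed) and 1.40 (GFPhigh), so GFPlow was not highest there. The cells counted differ there too, so whether depth alone changed this order was not tested. Without Ifit3b, at the main thinning, the ratios were 1.97, 1.43 and 1.62. The shared-barcode, co-detection, summed-Ifit3 and other-cell-type alternatives for counts were chosen after seeing the data. No paired analysis was possible because each bin is 1 library. Depth limits the core most: Ifit3, Rsad2 and Cmpk2 rest on 17 to 20 UMIs in GFPhigh, and differences between bins cannot be told apart from differences between libraries.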

Other observations

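Nr4a1, the gene that the sorting reporter follows, was compared with the number of core genes in the cell, a comparison named after its values were seen. In GFPhigh it stood at 359.97 UPM [331.6, 390.1] in cells with 0 core genes, 270.9 [227.3, 320.5] with 1 and 438.5 [318.6, 588.7] with 2, and at 0 in the 19 cells with 3 or more, which allows up to 145.03 UPM. In GFPmed the levels were 107.7, 64.5 and 41.6 UPM, and 0 in 24 cells, which allows up to 87.5 UPM. In GFPlow they were 39.8, 27.1 and 21.7 UPM, and 27.1 UPM [0.686, 150.9] in the 34 cells with 3 or more, an interval that held the level of cells with 0. Up to 54 Nr4a1 UMIs of GFPhigh lay in 1 cell and 13.9% of its cells had any, so that 19 cells are few for this gene.

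Ifnar2 stood over the 3 bins at 99.8, 99.3, 44.8 [25.1, 73.97] and 54.4 UPM [17.7, 127.002] for 0, 1, 2 and 3 or more, from 15 and 5 UMIs in the last 2 groups. The interval with 2 core genes lay below the level with 0, and that with 3 or more held it. In GFPmed Ifnar2 was at 87.5 UPM with 3 or more and 81.3 with 0. The erythroid-marker cell of GFPmed that held 26 Rsad2 UMIs also had 7 Isg20, 3 Isg15 and 3 Rtp4 UMIs and 0 of the IFIT genes.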
